A study of Zea mays with 16 samples.

Results

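Chilling left 64 nuclear gene IDs of maize leaves at a far lower transcript level in B73 and in M37W. They were chosen from all 44146 nuclear IDs among the 46430 IDs counted. Levels are CPM, the reads of an ID per 1000000 reads of its library. A member had to reach at least 10 CPM in all 4 control libraries of B73 and M37W, which 8419 IDs did. In each of these lines its highest chilled level also had to be at most 0.4 times its lowest control level. The chilled and control values of B73 and M37W therefore chose the members and are given as a description, without a test. B104 and CML333 did not enter the choice.

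The study compared 4 inbred lines at 4 °C (chilled) and at 26 °C (control), with 14 h of light and 10 h of dark and 2 leaf libraries per line and temperature. B73 supplied the maize reference genome, B104 is often used for transformation, and M37W and CML333 are parents of a widely used mapping population. How long the plants were chilled, their age, the leaf sampled and whether libraries came from separate plants were not given in the sources used here, so p-values measure the spread between these libraries only, which may be technical. Libraries were made with a kit that primes on the poly(A) tail and reads the 3′ end of each transcript, so long and short transcripts are counted alike.

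Maize comes from warm regions, and its leaves are known to be sensitive to chilling. In the cold, carbon fixation and growth slow while light is still absorbed, and leaves are known to change the levels of many transcripts. A lower transcript level can come from less synthesis or from faster decay, which counts of RNA do not tell apart, and in leaf RNA fewer cells of a type and less RNA per cell cannot be told apart either. Names were looked up in a RefSeq gene table, in which 0 of the 44146 nuclear IDs were found, and the count files give IDs only. The 25 lists written for pathways and cell types therefore held 0 members. No role is given to any ID, no sequence is printed, and the leaf label could not be set against nuclear marker genes.

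Library totals ran from 1780344 to 2705564 counts, so that 10 CPM stood for 17.8 to 27.1 counts and 3 counts, the limit that a count of 0 allows, for 1.11 to 1.69 CPM. The 2 B104 control libraries stood apart. Over all nuclear IDs, on log2(CPM + 1), they correlated with the other 14 libraries at 0.749 to 0.810, while those 14 correlated among themselves at 0.861 to 0.985. In B104, 93 IDs were at 10 CPM or more in both chilled libraries and at 0 in both controls, and 94 showed the reverse. The same counts were 18 and 42 in CML333, 4 and 4 in B73, and 3 and 1 in M37W. The libraries labelled CML333 control correlated with the M37W controls at 0.933 to 0.941, above their correlation with chilled replicate 1 of CML333 (0.875 to 0.881) and close to that with chilled replicate 2 (0.934 to 0.935). The chilled CML333 libraries correlated with each other at 0.921, while chilled replicate 1 correlated with the chilled M37W libraries at 0.935 to 0.936. Every comparison of chilled with control libraries in B104 and CML333 rests on these libraries. Whether the labels of line or temperature hold for them was not tested.

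In B73 and M37W the members as a set were lower after chilling. Their counts made up 0.222% and 0.200% of the total in the chilled B73 libraries, against 1.16% and 1.14% in the control libraries. In M37W they made up 0.277% and 0.262% of the chilled totals, against 1.29% and 1.20% of the control totals. The median member stood at 9.29 and 8.14 CPM in chilled B73, against 50.3 and 45.1 CPM in its controls. In M37W it stood at 8.70 and 8.13 CPM in chilled libraries, against 36.3 and 37.2 CPM in controls. The libraries of each temperature were close to each other, and chilled and control libraries do not overlap for any member because the rule requires it.

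**Figure D1:**
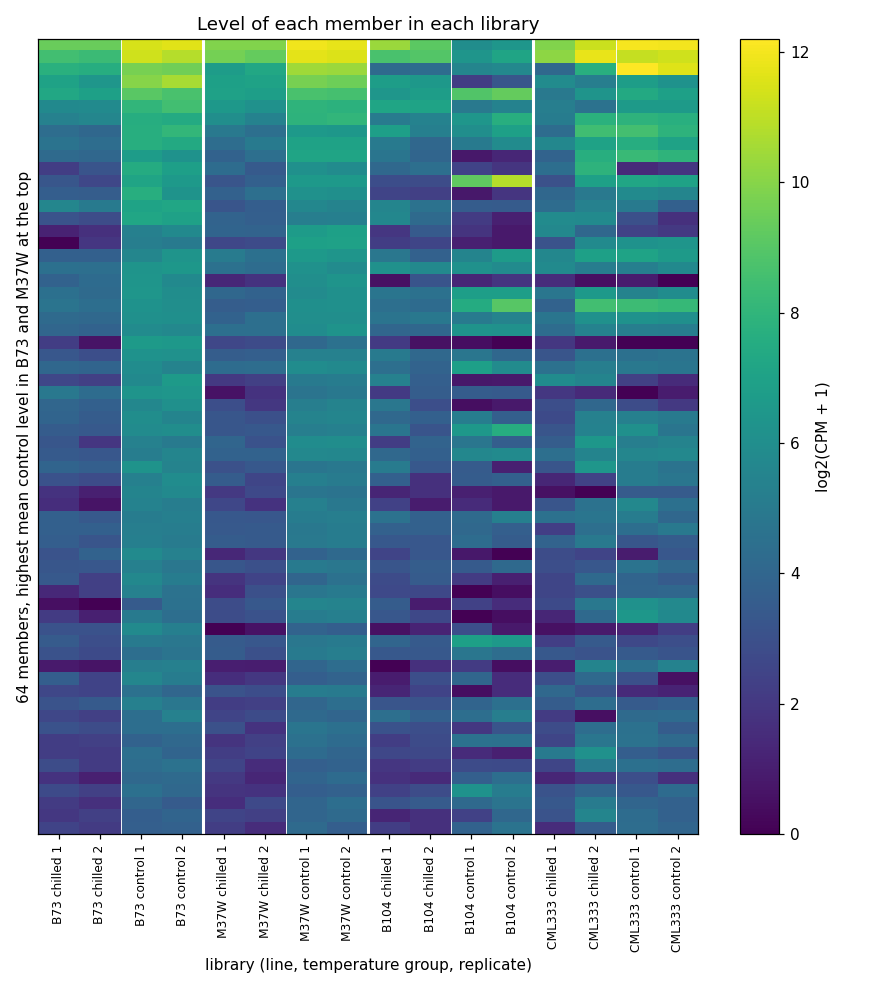
Level of each of the 64 members (rows, ordered by mean control level in B73 and M37W) in each of the 16 libraries (columns, chilled left of control in each line), coloured by log2(CPM + 1). In B73 and M37W every member is darker in the chilled columns, while B104 and CML333 show a mixture of both directions.

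The members differed widely in level and in how far they stood below the control. Their mean over the 4 control libraries of B73 and M37W ran from 13.5 to 3352 CPM with a median of 48.5 CPM. It was 100 CPM or more for 13 members and under 30 CPM for 17. The mean control level was 2.89 to 80.2 times the mean chilled level in B73 (median 4.56) and 2.85 to 51.0 times in M37W (median 4.65). The ratio was at least 10 for 16 members in B73 and for 6 in M37W. It was larger in B73 for 41 members and larger in M37W for 23, and for 47 members the lines' ratios were within 2-fold of each other. These ratios use library totals, by which the median of the 8419 IDs had a log2 change of -0.33 in B73 and -0.14 in M37W. No share over those IDs was computed, so these counts do not rank the lines. Over the 64 members the ratios of the lines had a Spearman correlation of 0.285, a description over points that share libraries.

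Zm00001d044194 was named because its ratio of highest chilled to lowest control level, taken in the line where it was larger, was the lowest of all members. It had 0.826 and 0.562 CPM in chilled B73 libraries, which stand for 2 counts and 1 count, against 36.0 and 38.7 CPM in the controls. In M37W it had 1.02 and 0.986 CPM in chilled libraries, against 14.8 and 19.5 CPM in controls. It was thus near the limit of detection in all 4 chilled libraries of these lines. Zm00001d009022 was the next by this ratio. It had 0 and 2.81 CPM in chilled B73, against 36.8 and 30.5 CPM in controls, and 5.12 and 5.91 CPM in chilled M37W, against 123.0 and 124.2 CPM in controls. Its control level was higher in both M37W libraries than in both B73 libraries.

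Zm00001d020636, chosen after its values were seen, was the most abundant member. It had 687.8 and 689.2 CPM in chilled B73, against 2789 and 3225 CPM in controls. In M37W it had 951.4 and 960.1 CPM in chilled libraries, against 3966 and 3427 CPM in controls. It held 24.0% to 36.6% of all member counts in the 8 libraries of these lines, so that sums over the members lean on it while medians do not. It remained far above most other members even in the cold.

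At 26 °C the mean control level in B73 was 0.272 to 4.87 times that in M37W, with a median of 1.14, and the gap was at least 2-fold for 17 members (26.6%), beside 16.5% of the 8419 IDs at the floor. Both B73 controls exceeded both M37W controls for 29 members (45.3%), beside 34.6% of the 8419 IDs. Both M37W controls were higher for 18 (28.1%), beside 26.5%, and 17 overlapped. The rule used these control levels, so the shares are a description and are not read as a trait of the members.

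The share of IDs that met the ratio of 0.4 was 4.73% in B73 (398 of 8419) and 3.43% in M37W (289), and 0.760% met it in both. The ratio has no natural gap at its limit. The larger of the ratios of B73 and M37W was 0.395 and 0.397 for the 2 members nearest inside it, and 0.402 and 0.403 for the 2 IDs nearest outside. Scaling matters for the count and for ratios compared between the lines. By library totals the median ID of the 8419 had a log2 change of -0.33 in B73 and -0.14 in M37W, and with trimmed mean of M-values (TMM) scaling -0.062 and -0.085. With TMM-scaled libraries 39 IDs met the rule, all 39 of them among the 64.

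**Figure D2:**
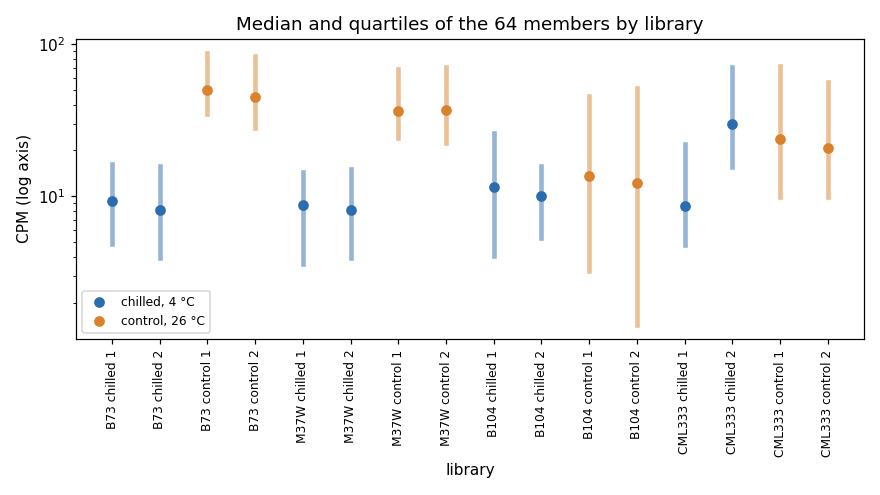
Median (point) and quartiles (bar) of the CPM of the 64 members in each library on a log axis, with chilled libraries in blue and control libraries in orange. Chilled replicate 2 of CML333 has a median of 29.8 CPM, beside 8.65 CPM in chilled replicate 1 and 23.8 and 20.8 CPM in the controls.

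In B104 the members went both ways. With edgeR's quasi-likelihood fit to the 16 libraries, 18 of the 64 fell on chilling and 16 rose, at an adjusted p under 0.05, and 30 did not pass. All 64 passed the filter on low counts. The 18 that fell are 28.1% of the members, beside 24.5% of all 17410 IDs tested, and the 16 that rose are 25% of them, beside 27.3% of all IDs. Both shares are near the background. The median log2 fold change of the members was -0.45 and that of all IDs tested was 0. It was -0.11 when control replicate 1 of B104 was left out, beside 0.098 over all IDs, and -0.033 when its control replicate 2 was, beside 0.093.

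The level of the members in B104 was low in both groups. Their median was 11.6 and 10.0 CPM in the chilled libraries and 13.7 and 12.3 CPM in the controls. In the chilled libraries 39 and 45 of the 64 were at or below the highest chilled level of B73 and M37W, and 8 and 0 were at or above the lowest control level of those lines. In the B104 controls 32 and 35 members were at or below that chilled level, and 17 and 22 were at or above that control level. Many members were thus at or below the highest chilled level of B73 and M37W in the B104 controls too, and not only in its chilled libraries. The rule itself set these levels of B73 and M37W apart, and no share over all IDs was computed for these counts. The mean control level was under 5 CPM for 21 members in B104 and for 13 in CML333. In B73 and M37W the rule's floor of 10 CPM allows no such member. Of 35 members at 10 CPM or more in both B104 controls, 13 (37.1%) were in both chilled libraries at most 0.4 times the lowest control, beside 23.5% of all 7791 such IDs. In chilled replicate 1 alone it was 16 (45.7%), beside 27.9%, and in chilled replicate 2 alone 15 (42.9%), beside 30.0%. For 24 members both chilled B104 libraries lay below both controls, beside 35.1% of all IDs tested, and for 20 both lay above, beside 36.0%.

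Zm00001d036839 and Zm00001d006059 had the lowest log2 fold changes of the members that fell in B104. Zm00001d036839 had 6.48 and 6.24 CPM in chilled libraries, against 594.7 and 1851 CPM in controls. The chilled values are like those of chilled B73 (8.67 and 5.06 CPM) and chilled M37W (8.19 and 12.3 CPM), and the control values are well above those of the B73 controls (137.9 and 93.1 CPM) and the M37W controls (93.3 and 95.6 CPM). Its log2 fold change in B104 was -7.58 (SE 1.09, edgeR adjusted p 0.000103). Zm00001d006059 had 21.3 and 18.3 CPM in chilled B104 libraries, against 181.8 and 531.7 CPM in controls, a log2 fold change of -4.18 (SE 0.995, edgeR adjusted p 0.00352). Chilled and control libraries were far apart for both IDs, and both calls held under all 24 alternatives.

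Zm00001d024763 and Zm00001d002181 had the highest log2 fold changes in B104, and there the direction was opposite to B73 and M37W. Zm00001d024763 is described further on, since it also rose in CML333. Zm00001d002181 had 8.79 and 5.35 CPM in chilled B104 libraries, against 0 and 0.378 CPM in controls. With 31 counts over the chilled and 1 count over the control group, the CPM ratio was 37.7 (95% exact interval 6.28 to 1535, counting error only), and the edgeR adjusted p was 0.00359. The chilled level was 3.31 and 1.12 CPM in B73 and 6.14 and 7.39 CPM in M37W, and the control level was 30.2 and 20.6 CPM in B73 and 33.6 and 37.2 CPM in M37W. The B104 controls were thus the libraries that stood far below their counterparts in those lines. Zm00001d020636, the most abundant member, had 1304 and 555.7 CPM in chilled B104 libraries, against 62.5 and 82.8 CPM in controls. Its log2 fold change of 3.71 had an SE of 0.551, with an edgeR adjusted p of 0.000125, and was called under all 24 alternatives. Zm00001d044194 had 0 and 2.23 CPM in chilled B104 libraries, against 3.33 and 0.378 CPM in controls, and the groups overlap (edgeR adjusted p 0.766, 0.301 to 0.876 under the alternatives). Zm00001d009022 had 3.70 and 4.91 CPM in chilled B104 libraries, against 1.11 and 0.756 CPM in controls. Its edgeR adjusted p was 0.0928 and ran from 0.00959 to 0.242 under the alternatives, with 0.0170 and 0.0174 without chilled replicates 1 and 2 of CML333.

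In CML333 few members passed the test, and the chilled libraries differed from each other. With all 16 libraries, 6 of the 64 members fell and 7 rose in edgeR's test, and 51 did not pass. The 6 are 9.38% of the members beside 5.36% of all IDs, and the 7 are 10.9% beside 10.0%. The median log2 fold change was -0.20 among members and 0.058 over all IDs tested. With the 4 CML333 libraries fitted alone, edgeR called 0 members lower and 2 higher (3.39%) of 59 tested, beside 1.54% and 1.32% of all 13546 IDs then tested. At an unadjusted p under 0.05 there were 15 members. No share over all IDs was computed at that threshold, so the 15 are not read as a result about the members. For 19 members both chilled libraries lay below both controls, beside 32.2% of all IDs tested, and for 10 both lay above, beside 20.1%.

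Chilled replicate 1 of CML333 was low for the members, like the chilled libraries of the other lines, whereas chilled replicate 2 was not. The members made up 0.305% of counts in chilled replicate 1 and 0.952% in chilled replicate 2, against 1.45% and 1.25% in the controls. Of 46 members at 10 CPM or more in both controls, 30 (65.2%) were in chilled replicate 1 at most 0.4 times the lowest control, beside 19.5% of all 9422 such IDs. In chilled replicate 2 it was 6 of the 46 (13.0%), beside 9.91% of those IDs, and in both libraries also 6, beside 6.90%. Of 51 members at 10 CPM or more in either chilled library, 32 were at least 2.5 times higher in replicate 2 than in replicate 1, beside 13.4% of 11135 IDs, and 1 was at least 2.5 times higher in replicate 1, beside 15.6%. The median gap between the chilled libraries was 1.45 on log2(CPM + 1) over 49 members at a mean of 10 CPM or more, beside 0.69 over all such IDs. In the CML333 controls the gap was 0.39 over 47 members, beside 0.32.

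**Figure D3:**
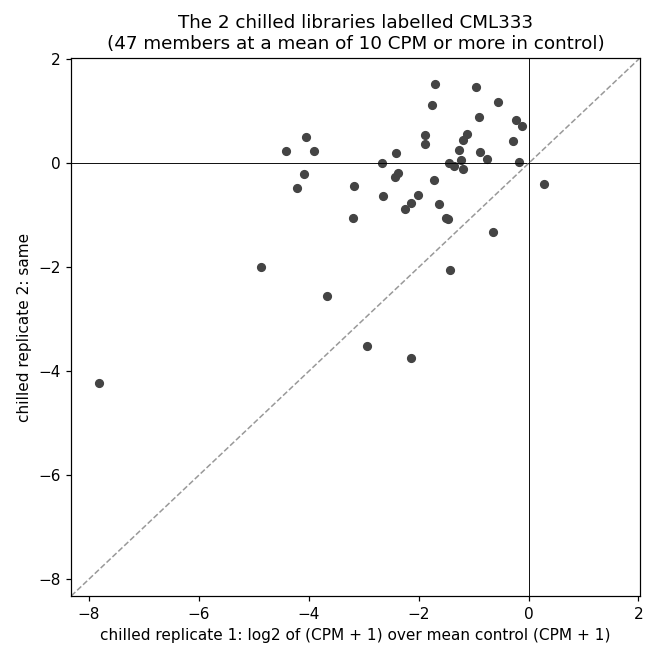
Chilled replicate 1 (horizontal axis) and chilled replicate 2 (vertical axis) labelled CML333, each as the log2 of (CPM + 1) over the mean control (CPM + 1), for the 47 members at a mean of 10 CPM or more in control, with the dashed line marking equal values. Most points (42 of 47) lie above the dashed line, with a median of -1.72 in replicate 1 and -0.059 in replicate 2.

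Without chilled replicate 2 of CML333 the edgeR test called 21 members lower and 7 higher. The 21 are 32.8% of the members beside 7.00% of the 18690 IDs then tested, and the 7 are 10.9% beside 13.3%. The median log2 fold change of the members was then -1.21, and that of all IDs -0.036. This fit has 1 chilled CML333 library, which is assumed to vary like the other groups. Shares over all IDs were not computed for calls in this fit and in B104 together. The joint counts that follow are therefore not read against the background. Of the 21 members, 5 were also lower with all libraries, and in B104 7 of them fell, 3 rose and 11 did not pass. Without chilled replicate 1 there were 5 lower members (7.81%), beside 2.92% of all IDs, and 6 higher (9.38%), beside 3.94%. Leaving out control replicate 1 of CML333 gave 2 lower members, beside 2.35% of all IDs, and 4 higher, beside 1.60%. Leaving out its control replicate 2 gave 3 lower, beside 2.14%, and 4 higher, beside 1.52%.

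Zm00001d045395 and Zm00001d038003 had the lowest log2 fold changes in CML333. Zm00001d038003 had 16.3 and 209.3 CPM in chilled libraries, against 4719 and 3126 CPM in controls, so that both chilled libraries were far below the controls although they differed from each other. Its log2 fold change was -4.93 (SE 0.823, edgeR adjusted p 0.00194, up to 0.0963 under the alternatives, reached with the CML333 libraries alone). In the other lines its chilled level was 216.9 and 194.9 CPM in B73, 106.5 and 161.2 CPM in M37W and 17.6 and 18.7 CPM in B104. Its control level was 837.2 and 746.7 CPM in B73, 1410 and 1318 CPM in M37W and 46.2 and 50.3 CPM in B104. In B104 its edgeR adjusted p was 0.136, and 0.00767 and 0.00743 without chilled replicates 1 and 2 of CML333 (0.00743 to 0.320 under all alternatives). Zm00001d045395 had 0.481 and 0 CPM in chilled CML333 libraries, against 10.5 and 10.3 CPM in controls. With 1 count over the chilled and 47 over the control group, its control level was 45.6 times the chilled level (95% exact interval 7.80 to 1841, counting error only), with an edgeR adjusted p of 0.00120, up to 0.0548 under the alternatives, reached with the CML333 libraries alone.

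The IDs with the lowest ratios in B73 and M37W did not pass with all CML333 libraries. Zm00001d044194 had 0.961 CPM in chilled replicate 1 and 45.0 CPM in chilled replicate 2, against 21.9 and 41.1 CPM in controls (edgeR adjusted p 0.904, 0.00539 without chilled replicate 2, up to 0.974 under other alternatives). Zm00001d009022 had 7.69 and 57.1 CPM in the chilled libraries, against 73.5 and 81.8 CPM in controls (edgeR adjusted p 0.321, 0.00266 without chilled replicate 2, up to 0.829 under other alternatives). Zm00001d020636 had 944.9 and 2428 CPM, against 4185 and 4104 CPM in controls (edgeR adjusted p 0.164, 0.0199 without chilled replicate 2, up to 0.555 under other alternatives). In each of the 3 IDs, chilled replicate 1 was below chilled replicate 2 and below both controls. The same held for the IDs with the lowest log2 fold changes in B104. Zm00001d036839 had 7.21 and 119.8 CPM in chilled CML333 libraries, against 147.4 and 129.7 CPM in controls (edgeR adjusted p 0.496, 0.00102 without chilled replicate 2, up to 1 under other alternatives). Zm00001d006059 had 13.5 and 365.0 CPM, against 326.2 and 289.7 CPM in controls (edgeR adjusted p 0.753, 0.000220 without chilled replicate 2, up to 0.869 under other alternatives).

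Side by side, 0 members fell in both B104 and CML333 with all libraries in edgeR, beside 1.25% of all IDs tested. In both lines 5 members (7.81%) rose, beside 5.58%, and 2 (3.12%) rose in B104 and fell in CML333, beside 1.48%. The reverse, lower in B104 and higher in CML333, held for no member, beside 0.971%. With so few members in each class, these shares are read as near the background, and the IDs are described for their values alone. At an unadjusted p under 0.05, 1 member was lower in both, beside 3.19% of all IDs. DESeq2 and limma with voom each called 1 lower in both, beside 1.28% in DESeq2 and 1.23% in limma with voom. A further 18 members fell in B104 and did not pass in CML333 (28.1%, beside 22.3% of all IDs), and 9 rose (14.1%, beside 20.3%). In CML333, 4 fell and did not pass in B104 (6.25%, beside 2.64%), and 2 rose (3.12%, beside 3.46%). In neither line did 24 pass (37.5%, beside 42.1%). The test of the difference itself, the B104 response minus the CML333 response, called 22 members (34.4%), beside 30.0% of all IDs tested. In 12 of the 22 the response was lower in B104 (18.75% of the members, beside 14.2% of all IDs). In 10 it was higher (15.6%, beside 15.8%).

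**Figure D4:**
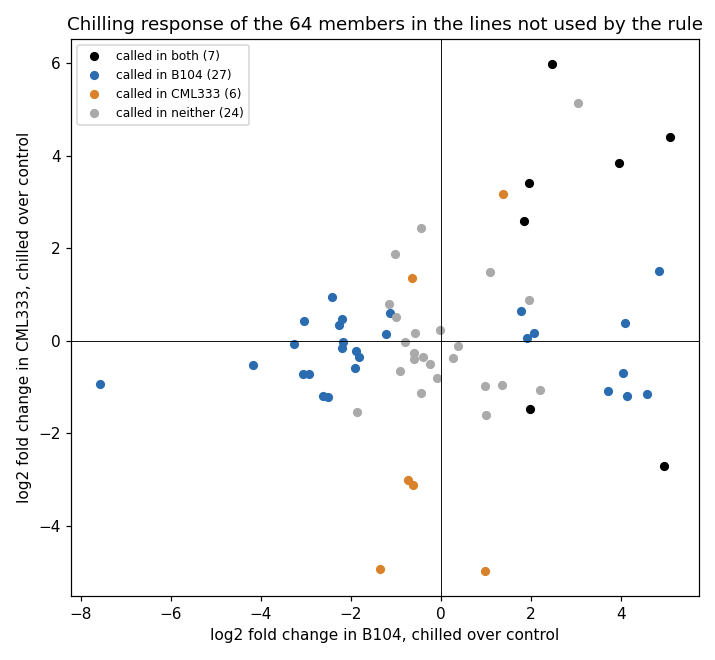
Log2 fold change of chilled over control in B104 (horizontal axis) and in CML333 (vertical axis) for each of the 64 members, from edgeR's fit of all 16 libraries, coloured by the line in which the ID was called. The 5 IDs called higher in both lines lie at the upper right, and no ID called lower in both is present.

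The 5 members that rose in both lines, named after their values were seen, are Zm00001d003015, Zm00001d024763, Zm00001d035246, Zm00001d035310 and Zm00001d036364. All 5 were lower in the cold in B73 and M37W by the rule. In each, the control libraries of B104 and CML333 were below the control libraries of B73 and M37W. These are the B104 controls that stood apart and the CML333 controls named above for their on and off IDs, and their part in these rises was not tested.

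Zm00001d024763 had 40.2 and 12.0 CPM in chilled B104 libraries, against 0.739 and 0.756 CPM in controls. In CML333 it had 61.0 and 44.1 CPM in chilled libraries, against 3.94 and 1.79 CPM in controls. In B73 it had 4.96 and 3.93 CPM in chilled libraries, against 54.2 and 98.0 CPM in controls, and in M37W 3.07 and 3.94 CPM, against 30.1 and 34.0 CPM. Its chilled level in B104 and CML333 was above that in B73 and M37W, and groups did not overlap in any line. The log2 fold change was 5.09 in B104 (SE 0.720, edgeR adjusted p 8.72e-05) and 4.41 in CML333 (SE 0.617, edgeR adjusted p 0.000597), and both calls held under all 24 alternatives.

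Zm00001d035246 had 49.0 and 17.8 CPM in chilled B104 libraries, against 3.33 and 1.13 CPM in controls, and 58.2 and 56.2 CPM in chilled CML333 libraries, against 7.00 and 2.24 CPM in controls. Its log2 fold change was 3.94 in B104 (SE 0.593) and 3.85 in CML333 (SE 0.559), with edgeR adjusted p of 0.000135 and 0.000793, and both calls held under all 24 alternatives. Zm00001d003015 had 16.7 and 21.0 CPM in chilled B104 libraries, against 4.44 and 2.65 CPM in controls, and 20.2 and 233.1 CPM in chilled CML333 libraries, against 1.75 and 2.68 CPM in controls. Chilled replicate 2 of CML333 was thus far above every other library of that line. The log2 fold change in CML333 was 5.98 (SE 0.947, edgeR adjusted p 0.00147), 3.40 without chilled replicate 2 (adjusted p 0.000548), and lost its call with the CML333 libraries alone (adjusted p 0.0715, the highest under the alternatives). In B104 it was 2.46 (SE 0.855, edgeR adjusted p 0.0273). That call held in 19 of 24 alternatives, and the losses include the fits without any 1 of the 4 B104 libraries.

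The remaining members of the 5 were nearer the threshold in B104. Zm00001d035310 had 5.09 and 5.35 CPM in chilled B104 libraries, against 1.85 and 1.13 CPM in controls, with an edgeR adjusted p of 0.0132 that became 0.0559 without control replicate 2 and 0.0527 with the B104 libraries alone. Zm00001d036364 had 2.78 and 9.81 CPM in chilled B104 libraries, against 2.59 and 0.756 CPM in controls. Its edgeR adjusted p of 0.0464 held in 8 of 23 alternatives and reached 0.516 without chilled replicate 2. In CML333 Zm00001d035310 had 30.8 and 70.1 CPM in chilled libraries, against 11.4 and 8.05 CPM in controls (adjusted p 0.00194, and 0.0598 with the CML333 libraries alone), and Zm00001d036364 had 51.4 and 16 CPM, against 4.37 and 3.13 CPM (edgeR adjusted p 0.00478, and 0.0512 and 0.0706 without control replicates 1 and 2 and 0.0779 with the CML333 libraries alone).

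**Figure D5:**
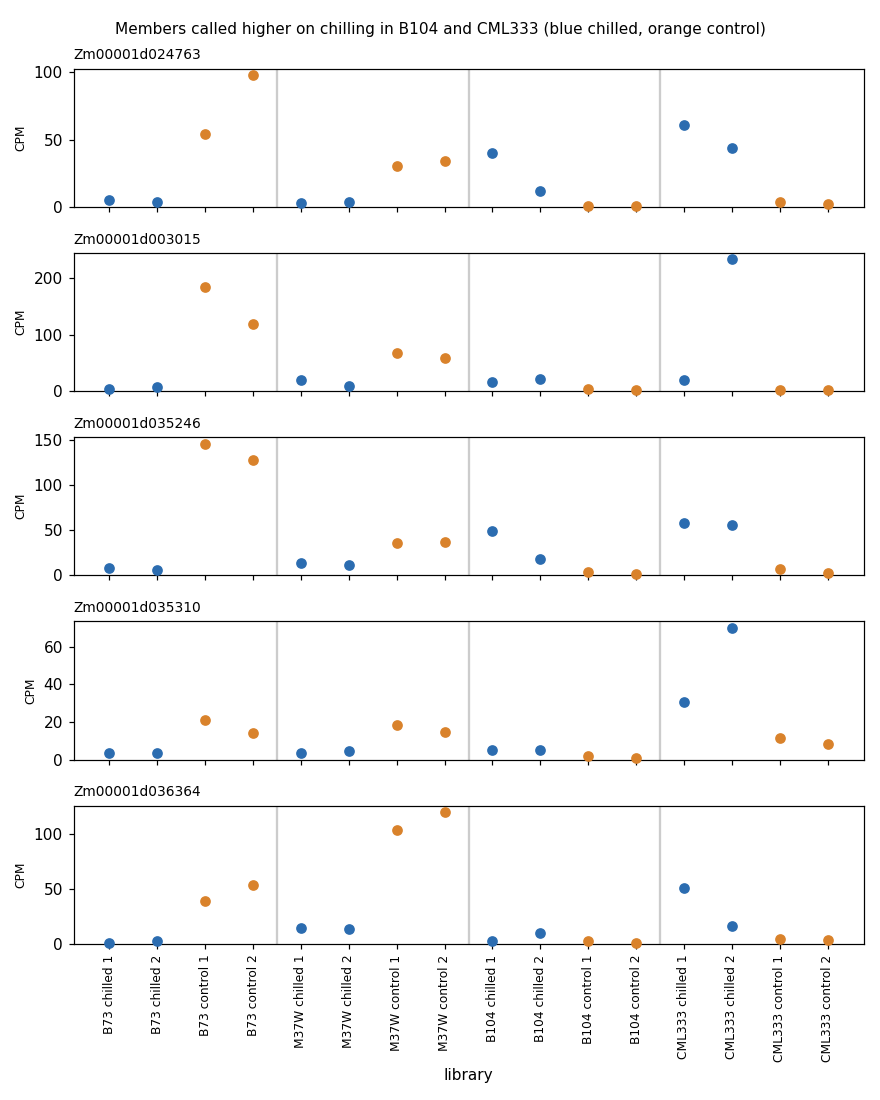
CPM of the 5 members called higher on chilling in both B104 and CML333 in each library (points; chilled blue, control orange), with chilled left of control in each line and a linear axis from 0. In B73 and M37W the control points are the high ones, and in B104 and CML333 the chilled points are.

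Zm00001d002181 and Zm00001d036401 rose in B104 and fell in CML333. Zm00001d036401 had 142.9 and 132.9 CPM in chilled B104 libraries, against 29.9 and 41.2 CPM in controls (edgeR adjusted p 0.000759). In CML333 it had 36.5 and 23.4 CPM in chilled libraries, against 100.6 and 98.8 CPM in controls (edgeR adjusted p 0.0172). Both its groups were separate in both lines, and the call in CML333 was lost without control replicate 1, control replicate 2 or chilled replicate 2 of CML333 (adjusted p 0.0805, 0.0882 and 0.0632) and with the CML333 libraries alone (adjusted p 0.134). Zm00001d002181 had 1.44 and 16.9 CPM in chilled CML333 libraries, against 86.1 and 55.0 CPM in controls, with an edgeR adjusted p of 0.0169 that became 0.109 without control replicate 1 and 0.0537 without control replicate 2, and 0.167 with the CML333 libraries alone.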

How the data were processed

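For each of the 16 libraries the authors deposited whole-number read counts per gene ID, with no normalization. STAR and edgeR were used, per the submitters' processing notes. How reads that align more than once were handled, the strand setting, tool versions, genome build and annotation were not given in the sources used here, so IDs that share reads with near-identical copies are uncertain. The authors also deposited a scaled signal per gene ID for each line, which was compared with the counts and not tested: 100% of their values equal the count times 1 constant per library (relative tolerance 1e-06).

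CPM used library totals over all 46430 IDs. All 16 libraries entered 1 fit in edgeR 4.0.16 (R 4.3.3) with filterByExpr (17410 IDs kept), TMM (factors 0.845 to 1.20), 8 group means and robust quasi-likelihood tests, two-sided, with Benjamini-Hochberg adjustment over all IDs tested and calls under 0.05. The procedure was tested on simulated counts. The alternatives run included DESeq2 (1.42.0) and voom (limma 3.58.1), other size factors, filters, thresholds, blocks, each line alone and each library left out. The SE of an edgeR log2 fold change was back-calculated as its absolute value over the square root of the quasi-likelihood F statistic. It is approximate, above all for groups near 0 counts. Intervals on ratios of summed counts are exact (0.95 level) and cover counting error only.

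The members and lists were chosen with earlier results of these data known. Without names, the rule named the 2 IDs with the lowest larger ratio of highest chilled to lowest control. The 2 lowest and 2 highest called IDs of B104 and of CML333 and the other IDs were chosen after their values were seen.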

Additional observations from a re-analysis of the deposited data

Results flagged for a closer look

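The test of the B104 response minus the CML333 response called 22 of the 64 members (34.4%), beside 30.0% of all IDs tested, a share near the background. Among the IDs described above, edgeR called a lower response in B104 than in CML333 for Zm00001d036839 (log2 difference -6.65, adjusted p 0.00184), Zm00001d006059 (-3.65, adjusted p 0.0442) and Zm00001d003015 (-3.52, adjusted p 0.0496). It called a higher response in B104 for Zm00001d002181 (7.67, adjusted p 0.00103), Zm00001d045395 (5.96, adjusted p 0.00137), Zm00001d020636 (4.80, adjusted p 0.000434), Zm00001d038003 (3.57, adjusted p 0.0193) and Zm00001d036401 (3.47, adjusted p 0.000438). The values of Zm00001d002181 and Zm00001d045395 rest on groups with 1 count and depend on the prior count of the fit. All of them rest on the B104 controls that stood apart and on CML333 libraries that differ from each other, whose part in the differences was not tested.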

How the results depend on the processing

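The rule gave 26 IDs with a ratio of 0.3, 149 with 0.5, 39 with TMM scaling and 79 to 94 with 1 of its 8 libraries left out, and stayed within 1.5 times of 64 with a floor of 5 or 20 CPM (80 and 46). Leaving out a library can only loosen the rule, so that number could not fall below 64. The numbers of members that fell and rose in B104 stayed within 1.5 times of 18 and 16 under every alternative run. At an adjusted p under 0.01 they were 13 (20.3%, beside 16.2% of all IDs) and 12 (18.75%, beside 20.1%), near the background as in the main fit. In CML333 the 6 that fell became 3 at an adjusted p under 0.01, 0 with the line's libraries alone (15 members at an unadjusted p under 0.05) and 2 to 21 with 1 library left out. DESeq2 and voom called 7 each. The 7 that rose became 2 with the line's libraries alone and 4 to 7 with 1 library left out. The 22 members whose responses differed became 13 at 0.01 and 11 with the 8 libraries of these lines alone. The median log2 difference of the members, B104 minus CML333, was -0.34 with all libraries, beside -0.13 over all IDs tested. It was -0.62 without chilled replicate 1 of CML333, beside 0.15, and 0.56 without chilled replicate 2 of CML333, beside 0.043. The direction of this median thus depended on which chilled CML333 library was kept. The median log2 fold change of the members ran from -0.42 to -0.033 in B104 and from -1.21 to 0.18 in CML333 with 1 library left out. In an alternative chosen after seeing the data, with the 1 ID with a group at 0 in CML333 set to 3 counts, medians of summed counts were -0.48 in B104 and -0.35 in CML333. Of 668 log2 fold changes of the 14 IDs under alternatives, 616 kept direction and call, 36 lost the call, 11 gained it and 5 changed sign, none of the 5 a call. These were Zm00001d044194 in B104 (1.42 without control 1 and 0.40 without chilled 1, -5.16 at the lowest) and in CML333 (0.24 without control 2 and 0.64 without chilled 1, -4.72 at the lowest), and Zm00001d006059 in CML333 (0.38 without chilled 1, -4.27 at the lowest). The cause of these changes was not tested. The replicate numbers of the sample titles showed little pairing: within a line the deviations of same-numbered libraries correlated at -0.041 to 0.11. The sample descriptions carry another number, which differs from the title number for some libraries, and pairing by it was not tested. With a replicate block by number 18 members fell (28.1%, beside 24.0% of all IDs) and 15 rose (23.4%, beside 27.2%) in B104. In CML333 6 fell (9.38%, beside 5.12%) and 7 rose (10.9%, beside 9.27%). The response differed for 19, with 9 lower in B104 (14.1%, beside 13.5%) and 10 higher (15.6%, beside 15.7%). With a replicate block by line and number 17 fell (26.6%, beside 22.4%) and 17 rose (26.6%, beside 27.1%) in B104. In CML333 6 fell (9.38%, beside 4.57%) and 7 rose (10.9%, beside 8.17%). The response then differed for 18, with 8 lower in B104 (12.5%, beside 11.8%) and 10 higher (15.6%, beside 15.3%).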
